A study of Mus musculus with 4 samples.

Results

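The 10 genes described here encode actin and the proteins that bind it in leukocytes: the actins *Actb* and *Actg1*, the monomer binders *Tmsb4x*, *Tmsb10* and *Pfn1*, the filament severing factor *Cfl1*, the Arp2/3 subunits *Arpc1b* and *Arpc2*, and the filament binders *Coro1a* and *Lsp1*. They were chosen by name, as 10 of the 13265 genes in a scRNA-seq table of 5080 cells, and all 10 were found in it. The cells, YFP+CD4+ T cells, came from small intestines of C57BL/6 mice of either sex, 7 to 8 months old, and were captured in droplets so that each RNA molecule carries a unique molecular identifier (UMI). All mice carried *Il17a-cre* and the *Rosa26-stop* fl/fl-*yfp* reporter, so that YFP marks cells that have at some time used the *Il17a* promoter. TGFβR-KO mice also carried floxed *Tgfbr2*, TGFβR-CA mice carried a constitutively active *Tgfbr1* behind a floxed stop cassette, and TGFβR-WT littermates had neither floxed allele. Of the 4 samples, each a pool of mice, 1 was TGFβR-KO, 1 TGFβR-CA and 2 TGFβR-WT.

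Actin cycles between monomers and filaments, and T cells depend on this cycle to crawl, to form an immunological synapse and to divide. Thymosins hold monomers in reserve, profilin hands them to growing ends, the Arp2/3 complex starts branches, cofilin cuts and recycles old filaments, and coronin binds filaments and the Arp2/3 complex. Many actin genes are targets of serum response factor (SRF), whose cofactors are themselves held back by free actin monomers. TGFβ is best known in this field for reorganizing actin in fibroblasts and epithelial cells.

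The table named 2975 cells as TGFβR-KO, 1098 as TGFβR-CA and 1007 as TGFβR-WT. The TGFβR-WT cells could not be assigned to their 2 samples, so they are also shown as the larger set (709 cells) and the smaller set (298 cells) that the suffixes of their names form. What the suffixes stand for is not known, so the sets were not taken as replicates. They differed in *Xist*, *Tgfbr1* and Th17 markers, as given below, so the spread between them need not be technical only. A level is the number of corrected UMIs of a gene per 10000 corrected UMIs of all genes, summed over cells. Corrected UMIs are those that the authors adjusted to a common depth, and the median was between 3440 and 3984.5 per cell in the 4 sets. With 1 sample in TGFβR-KO and TGFβR-CA there is no replicate spread and no test. A difference was called by size alone, when a level was at least 1.5 times higher, or lower, than in both TGFβR-WT sets, and the calls over the 7490 genes with at least 200 corrected UMIs serve as the background. All 10 genes passed that minimum.

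The libraries differed in ways that touch every level. *Gm42418*, which overlaps ribosomal RNA, had a level of 49.0 in TGFβR-KO, 35.8 in the larger set, 43.5 in the smaller set and 483 in TGFβR-CA. Together with *AY036118* and *Lars2* it took 5.77% of the corrected UMIs of TGFβR-CA and at most 0.564% in the other sets. *Xist*, which is made from the inactive X chromosome of female cells, was at 0 in TGFβR-KO and in the larger set, at 9.86 in the smaller set and at 4.59 in TGFβR-CA. *Tgfbr1* was at 0.219 in TGFβR-KO, 0.367 in the larger set, 2.79 in the smaller set and 0.792 in TGFβR-CA. TGFβR-CA thus lay between the TGFβR-WT sets, and whether its active form is counted as *Tgfbr1* is not known. Conditions are named as the cells are labelled. *Tgfbr2* was at 1.48 in TGFβR-KO and between 1.72 and 1.78 in the other sets. The 7 CD4 T cell markers were all present and summed to between 83.1 and 100.1. The 5 Th17 markers summed to 5.68 in TGFβR-KO, 4.18 in the larger set, 9.89 in the smaller set and 5.04 in TGFβR-CA. Markers of γδT cells summed to at most 0.181, in the smaller set, and those of CD8 T cells to at most 0.0453. Markers of epithelium summed to at most 0.287, those of smooth muscle and fibroblasts (2 of 8 in the table, with *Acta2* at 0 outside TGFβR-KO) to at most 0.00913, those of B cells to at most 0.703 and those of myeloid cells to at most 0.0525. Of the cell barcodes, 16 occurred in more than 1 set, 14 of them in TGFβR-KO and the larger set.

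The promoters shown are those of *Actg1*, *Tmsb4x* and *Cfl1*, the 3 members whose levels passed 1.5 times in TGFβR-CA. No other member was called in either condition. For *Tmsb4x* and *Cfl1* the call rested on the denominator, as given below. The sequences are from RefSeq (GRCm38.p6) and end where the GENCODE gene begins. Capitals mark a CArG box, the element that SRF binds. The *Actg1* window is chr11:120348543-120348745 on the minus strand, the *Tmsb4x* window chrX:167209316-167209468 on the minus strand, and the *Cfl1* window chr19:5490205-5490454 on the plus strand.
Actg1: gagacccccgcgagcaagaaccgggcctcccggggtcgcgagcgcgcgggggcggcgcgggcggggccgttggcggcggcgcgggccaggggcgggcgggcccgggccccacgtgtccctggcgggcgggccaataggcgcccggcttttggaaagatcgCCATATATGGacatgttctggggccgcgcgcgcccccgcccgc
Tmsb4x: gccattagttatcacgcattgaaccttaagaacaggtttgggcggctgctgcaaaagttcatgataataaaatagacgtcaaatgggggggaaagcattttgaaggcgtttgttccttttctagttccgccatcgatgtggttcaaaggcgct
Cfl1: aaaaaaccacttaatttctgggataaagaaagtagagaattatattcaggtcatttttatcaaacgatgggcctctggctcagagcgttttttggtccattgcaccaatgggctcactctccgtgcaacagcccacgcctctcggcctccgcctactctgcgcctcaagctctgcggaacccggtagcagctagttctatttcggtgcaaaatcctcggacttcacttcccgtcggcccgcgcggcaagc
The CArG box of *Actg1* starts 43 bases before the GENCODE gene. RefSeq windows of 250 bases before the start were at hand for 8 of the 10 genes, without *Actb* and *Lsp1*, and only that of *Actg1* held a CArG box on either strand, as did 1.47% of 32851 windows of this length. CAGAC, the core letters of a SMAD element, was in 42.2% of all windows on either strand and, among these genes, only in that of *Tmsb4x*, 67 bases before the RefSeq start and inside the GENCODE gene. These matches describe letters in the windows and not binding.

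*Actg1*, which encodes cytoplasmic γ-actin (chromosome 11, 120345690 to 120348542, minus strand, GRCm38), was the only member called higher in any condition. Its level was 0.764 in TGFβR-KO, 0.870 in the larger set, 0.915 in the smaller set and 2.59 in TGFβR-CA, from 877, 218, 111 and 1136 corrected UMIs. TGFβR-CA thus stood 2.98 and 2.83 times above the larger and the smaller set, while the other 3 sets lay close together. At least 1 *Actg1* UMI was found in 57.6% of TGFβR-CA cells (exact Clopper-Pearson 95% interval 54.6 to 60.5%, counting error only) but in 24.8% of TGFβR-KO cells, 23.7% of the larger set and 28.5% of the smaller set. All sorted cells should use actin, so no cell type lacking it was at hand to set a background of free RNA. Of all tested genes, 1.26% were higher in TGFβR-CA by this rule, and 1 of the 10 members was.

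The difference in *Actg1* was present in each cluster that could be compared. Cluster names are the authors', and 4 clusters had at least 20 cells in every set: germinal center and tissue-resident follicular helper T cells (GC-TFH and TR-TFH), Activated and Pre-tumorigenic. Over these 4 clusters and both TGFβR-WT sets, the ratio of TGFβR-CA ran from 2.24 in Activated cells to 3.95 in TR-TFH cells. In Migratory cells, too few in the smaller set, the ratio to the larger set was 1.81. The levels in TGFβR-CA varied little, from 2.16 in Activated to 2.76 in GC-TFH cells. In TGFβR-KO, by contrast, *Actg1* was lower than in both TGFβR-WT sets in all 4 clusters, with ratios from 0.568 to 0.849. These ratios are uncertain, since they rest on few TGFβR-WT UMIs. The larger and smaller set held 7 and 17 in Pre-tumorigenic and 31 and 11 in Activated cells. In TR-TFH cells of TGFβR-KO *Actg1* had its lowest level, 0.446. In cycling TGFβR-KO cells it reached 1.73, against 1.06 in cycling cells of the larger set, from only 56 and 16 UMIs in 77 and 41 cells.

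*Actb*, which encodes cytoplasmic β-actin (chromosome 5, 142903115 to 142906754, minus strand), did not follow *Actg1*. Its level was 123 in TGFβR-KO, 117 in the larger set, 96.5 in the smaller set and 97.7 in TGFβR-CA. Every cell of the table had at least 4 corrected *Actb* UMIs, with a median of 43 in TGFβR-KO and 36 in TGFβR-CA. The level of TGFβR-CA lay between those of the TGFβR-WT sets, and the ratio of TGFβR-KO was 1.05 to the larger and 1.28 to the smaller set.

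The part of *Actg1* in the summed UMIs of both actins was also taken, since the total that levels are divided by cancels in it, though the authors' correction for depth does not. It was 0.616% in TGFβR-KO (95% interval 0.576 to 0.658%), 0.738% in the larger set (0.644 to 0.843%), 0.940% in the smaller set (0.774 to 1.13%) and 2.58% in TGFβR-CA (2.44 to 2.74%). The interval of TGFβR-CA was apart from the other 3, also within each of the 4 clusters, where the lowest TGFβR-CA share was 2.32% in Activated cells and the highest TGFβR-WT share 1.21% in GC-TFH cells of the smaller set. These intervals cover counting error only and not the spread between mice or libraries, so their separation is no test of the condition. The levels of 2 genes are not compared here, since the number of UMIs per transcript depends on how each gene's 3' end is annotated. 2 small RNA genes, *Gm23419* and *Mir6935*, lie within *Actg1* on the same strand, and reads in them may not have been given to either gene.

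**Figure D1:**
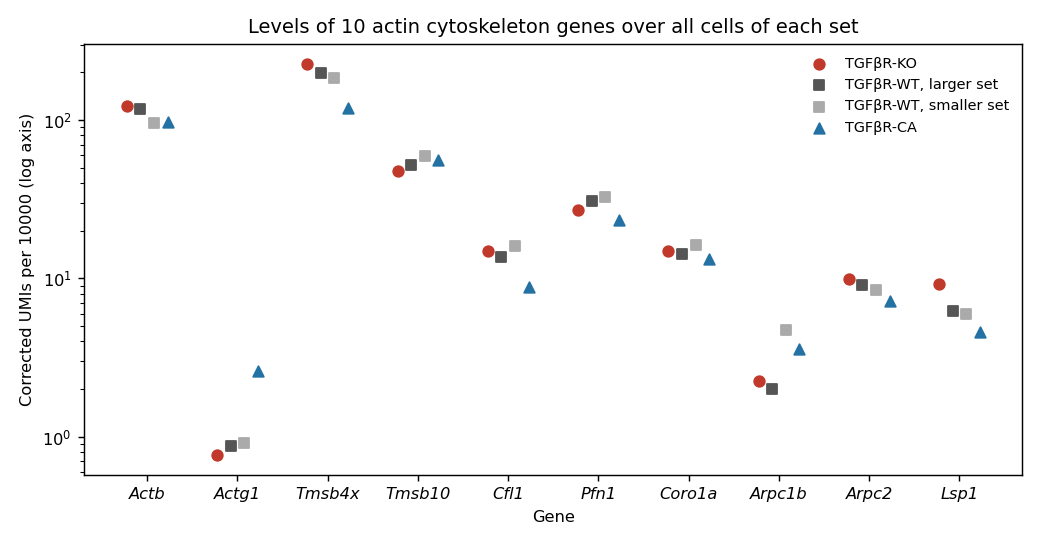
Level of each of the 10 genes (corrected UMIs per 10000, log axis) over all cells of TGFβR-KO (circles), the larger and smaller TGFβR-WT sets (squares) and TGFβR-CA (triangles), 1 point per set. Actg1 stands at 2.59 in TGFβR-CA and at 0.764 to 0.915 elsewhere, while Tmsb4x and Cfl1 have their lowest points in TGFβR-CA.

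*Tmsb4x*, the gene of thymosin β4 (chromosome X, 167207093 to 167209315, minus strand), was lower in TGFβR-CA than in both TGFβR-WT sets. Its level was 228 in TGFβR-KO, 199.6 in the larger set, 185 in the smaller set and 120.1 in TGFβR-CA. A cell held a median of 84 *Tmsb4x* UMIs in TGFβR-KO, 63 and 68 in the larger and smaller set, and 43 in TGFβR-CA. The level of TGFβR-CA was 1.66 times lower than that of the larger and 1.54 times lower than that of the smaller set, and that of TGFβR-KO was 1.14 and 1.23 times higher, though 0.917 times the pooled TGFβR-WT level with equal weight for each of 4 clusters. In the 4 clusters, TGFβR-CA was 1.37 to 1.80 times lower. *Tmsb4x* is X-linked, and *Xist* moved between the sets as given above. Its part in the result was not tested.

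*Cfl1*, the gene of cofilin 1 (chromosome 19, 5490455 to 5495201, plus strand), was the other member called lower in TGFβR-CA. Its level was 15.0 in TGFβR-KO, 13.8 in the larger set, 15.98 in the smaller set and 8.88 in TGFβR-CA. The TGFβR-CA value was 1.55 and 1.80 times lower than those of the larger and smaller set, and TGFβR-KO lay between the TGFβR-WT sets. A cell held a median of 3 UMIs in TGFβR-CA and of 4 to 6 in the other sets. In the 4 clusters the difference was between 1.43 and 2.03 times, and it was largest in Pre-tumorigenic cells, with 9.91 in TGFβR-CA against 20.1 and 19.0. Of all tested genes, 2.75% were lower in TGFβR-CA by the rule of 1.5 times, and 2 of the 10 members were.

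Both calls rested on the denominator. With *Gm42418*, *AY036118* and *Lars2* left out of it, an alternative chosen after the data were seen, *Tmsb4x* was 1.57 and 1.46 times lower and *Cfl1* 1.47 and 1.70 times lower in TGFβR-CA, so that neither passed 1.5 against both sets, whereas *Actg1* was 3.15 and 2.99 times higher. The median ratio over all tested genes was also below 1, at 0.935 and 0.931 in TGFβR-CA and 0.897 and 0.896 in TGFβR-KO against the larger and the smaller set. Relative to these medians, *Actg1* was the only member past 1.5 times in TGFβR-CA (3.19 and 3.04 times higher), *Tmsb4x* was 1.55 and 1.43 times lower, and *Cfl1* 1.45 and 1.68 times lower. Of all genes, 1.76% were then called higher and 1.71% lower in TGFβR-CA, and 4.09% higher and 3.28% lower in TGFβR-KO. How far the ribosomal RNA of the TGFβR-CA library set these levels was not tested beyond these values.

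The other monomer binders moved less. *Pfn1*, the profilin 1 gene (chromosome 11), had a level of 27.1 in TGFβR-KO, 30.7 in the larger set, 32.5 in the smaller set and 23.3 in TGFβR-CA. It was lower in TGFβR-CA by 1.32 and 1.40 times, short of the call, and lower in TGFβR-KO by 1.13 and 1.20 times. *Tmsb10*, the gene of thymosin β10 (chromosome 6), was at 47.4 in TGFβR-KO, 51.8 in the larger set, 59.0 in the smaller set and 56.2 in TGFβR-CA, where it lay between the TGFβR-WT sets. Its value is uncertain, because 61.9% of the 50-base windows in the last 500 bases of its transcript occur unchanged in transcripts of 5 other genes. For *Actb* this share was 9.31%, from 1 other gene (*Lrrc58*), and for the other 8 members it was 0.

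Since *Tmsb4x* was lower in TGFβR-CA and *Tmsb10* was not, the makeup of the thymosin pool at the RNA level differed over all cells. This holds as far as the uncertain *Tmsb10* values can be taken. *Tmsb10* made up 17.2% of the UMIs of both thymosins in TGFβR-KO, 20.6% in the larger set, 24.2% in the smaller set and 31.9% in TGFβR-CA. In the same order of sets, the shares were 22.1, 23.8, 33.8 and 37.5% in GC-TFH cells, 27.4, 26.8, 31.7 and 38.9% in TR-TFH cells and 14.8, 12.7, 12.6 and 18.8% in Pre-tumorigenic cells. They were 11.4, 8.08, 9.27 and 11.4% in Activated cells, the lowest of any cluster in each set. The order of the sets over all cells thus held in GC-TFH cells but not in the other 3 of these clusters. GC-TFH and TR-TFH cells numbered 263 and 556 of 1098 in TGFβR-CA and 318 and 519 of 2975 in TGFβR-KO. How far this makeup enters the shares over all cells was not tested.

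**Figure D2:**
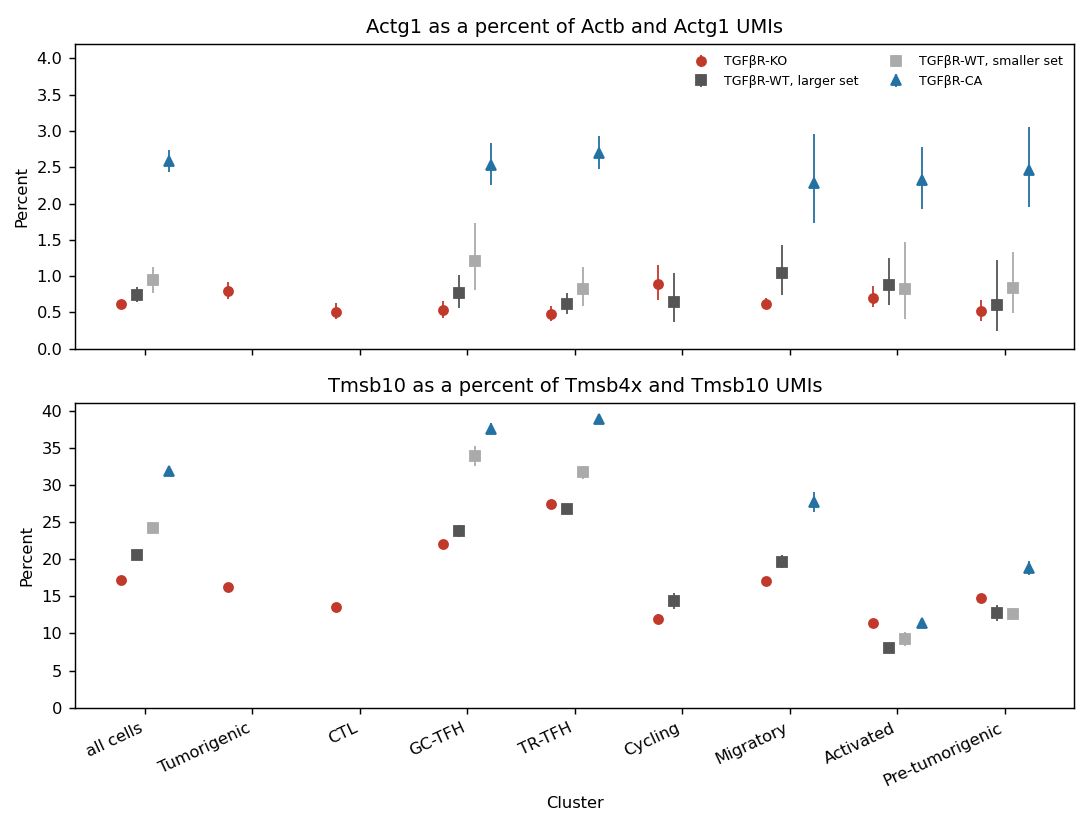
Actg1 as a percent of Actb and Actg1 UMIs (top) and Tmsb10 as a percent of Tmsb4x and Tmsb10 UMIs (bottom), over all cells and by cluster, for each set with at least 20 cells of the cluster. Bars are exact 95% intervals of counting error, and TGFβR-CA (triangles) is at 2.58% for Actg1 over all cells against at most 0.940% in the other sets.

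The Arp2/3 subunits showed a different split. *Arpc1b*, a subunit found mainly in blood cells (chromosome 5), had a level of 2.24 in TGFβR-KO, 1.999 in the larger set, 4.76 in the smaller set and 3.61 in TGFβR-CA. TGFβR-KO and the larger set were alike and low, and the smaller set and TGFβR-CA were high, so the larger and smaller set were 2.38 times apart, more than either condition differed from the pooled TGFβR-WT cells. It was the only member whose TGFβR-WT sets differed by 1.5 times, as 22.2% of all tested genes did. No direction can therefore be given for it. *Arpc2*, another subunit (chromosome 1), was at 9.97 in TGFβR-KO, 9.15 in the larger set, 8.51 in the smaller set and 7.17 in TGFβR-CA, or 1.28 and 1.19 times lower in TGFβR-CA.

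*Coro1a*, the coronin of leukocytes (chromosome 7), was the steadiest across sets, with a level of 15.0 in TGFβR-KO, 14.3 in the larger set, 16.2 in the smaller set and 13.3 in TGFβR-CA. *Bola2* overlaps it on the opposite strand, as *Snx32* does *Cfl1*, *Pdap1* does *Arpc1b* and *Prr33* does *Lsp1*.

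*Lsp1*, which encodes leukocyte-specific protein 1, a filament binder with a role in migration (chromosome 7, 142460809 to 142494867, plus strand), was the member with the largest increase in TGFβR-KO. Its level was 9.22 in TGFβR-KO, 6.25 in the larger set, 5.94 in the smaller set and 4.57 in TGFβR-CA, and 87.0, 75.5, 78.9 and 71.1% of the cells had at least 1 UMI. TGFβR-KO was 1.48 and 1.55 times higher, just short of the call, and relative to the median gene it was 1.64 and 1.73 times higher, past it. TGFβR-CA was 1.37 and 1.30 times lower. No member was called in TGFβR-KO, where 2.94% of all tested genes were called higher and 5.43% lower.

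The increase of *Lsp1* was smaller or turned within clusters. In TGFβR-KO against both TGFβR-WT sets its ratio ran from 0.757 in Pre-tumorigenic to 1.16 in Activated cells over the 4 clusters, and with each of these clusters given equal weight TGFβR-KO was 0.982 times the pooled TGFβR-WT level. In GC-TFH cells the ratios were 1.13 and 1.14 and in Activated cells 1.09 and 1.16, against the larger and the smaller set. In Cycling cells, too few in the smaller set, *Lsp1* was at 8.52 in TGFβR-KO and at 6.11 in the larger set, 1.39 times apart. *Lsp1* was highest in Migratory cells, at 13.3 in TGFβR-KO, 13.1 in the larger set and 12.9 in TGFβR-CA, and lowest in GC-TFH cells, at 3.78, 3.35 and 2.81. Migratory cells were 831 of 2975 in TGFβR-KO, 73 of 709 in the larger set, 16 of 298 in the smaller set and 52 of 1098 in TGFβR-CA. In TR-TFH cells, the largest cluster of the TGFβR-WT sets, the level was 4.61 in TGFβR-KO, 4.52 in the larger set and 4.77 in the smaller set.

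**Figure D3:**
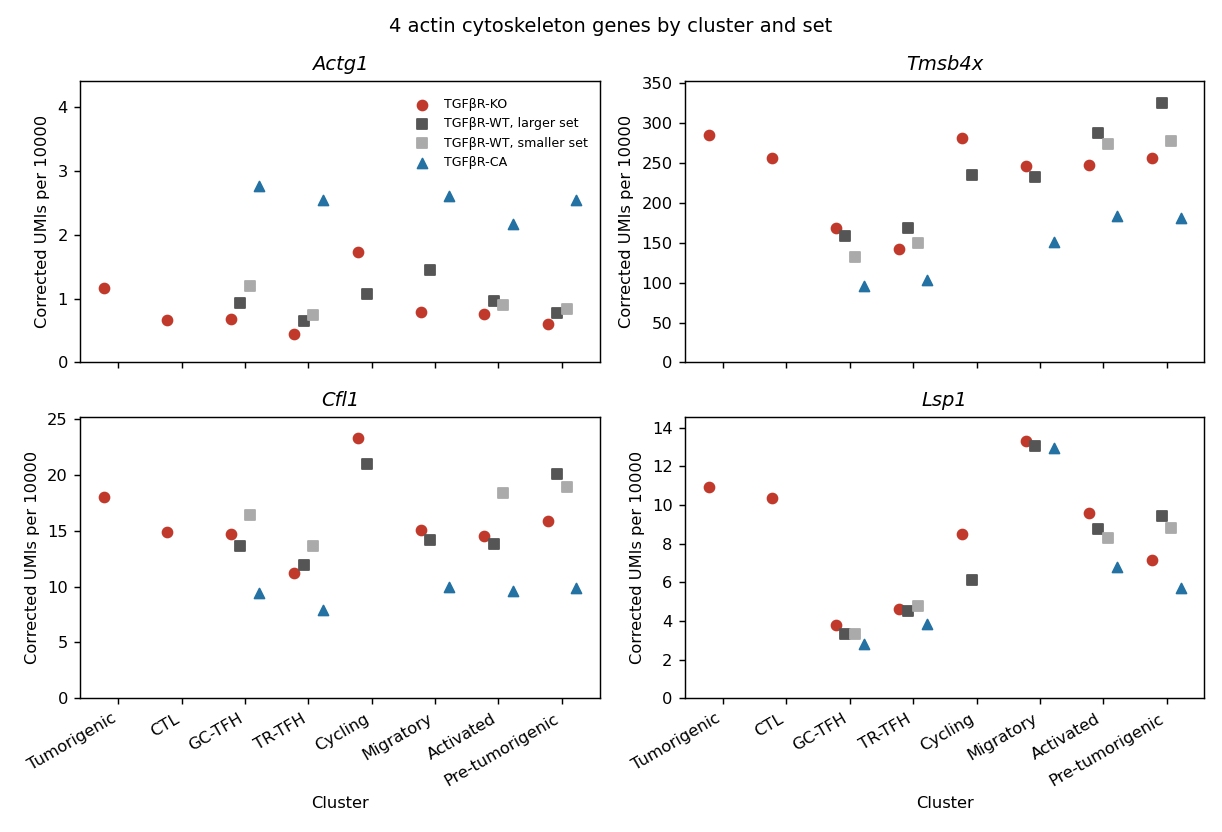
Levels of Actg1, Tmsb4x, Cfl1 and Lsp1 (corrected UMIs per 10000, axes from 0) by cluster in each set with at least 20 cells, 1 point per set. In each of its 5 clusters, TGFβR-CA is above the other sets for Actg1 and below them for Tmsb4x and Cfl1, while Lsp1 differs more between clusters (3.78 to 13.3 in TGFβR-KO) than between sets.

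Direction was also read cluster by cluster. In TGFβR-CA, *Actg1* was higher than both TGFβR-WT sets in all 4 clusters, and *Tmsb4x*, *Cfl1*, *Pfn1* and *Lsp1* were lower, which is 1 and 4 of the 10 members beside 2.03% and 4.15% of all tested genes. The sizes were modest for *Pfn1*, 1.18 to 1.71 times, and *Lsp1*, 1.18 to 1.65 times. In TGFβR-KO, no member was higher in all 4 and *Actg1* and *Pfn1* were lower, beside 2.36% and 5.51% of all tested genes. For *Actg1* this rests on the few UMIs given above. The conditions share their TGFβR-WT cells, so these counts are not independent of each other.

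**Figure D4:**
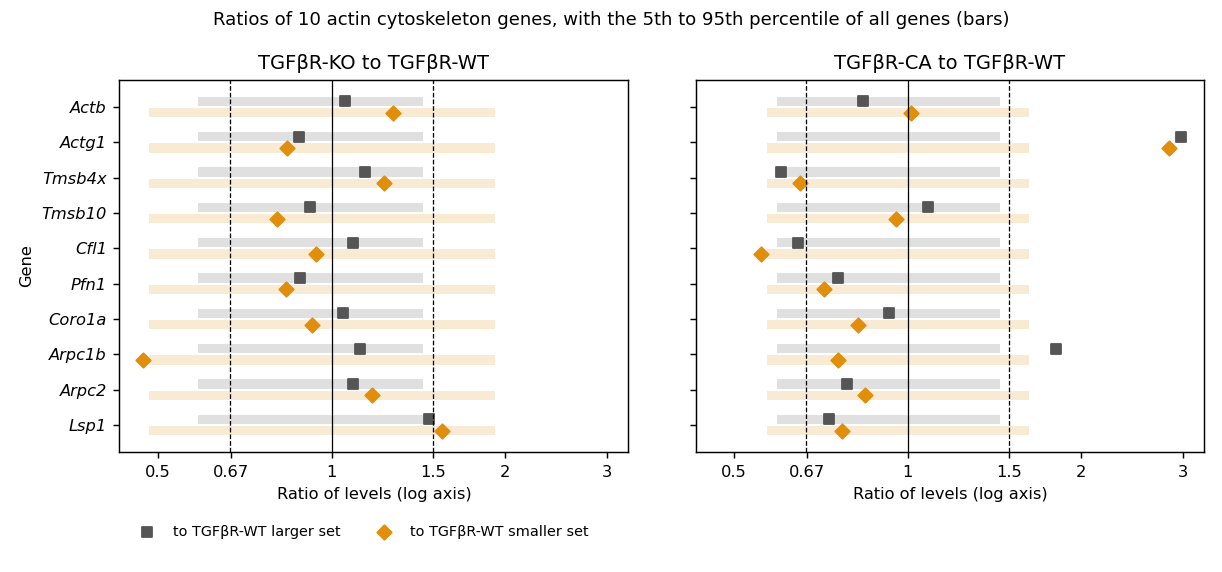
Ratio of the level in TGFβR-KO (left) and TGFβR-CA (right) to the larger (squares) and smaller (diamonds) TGFβR-WT set, on a log axis, with bars from the 5th to the 95th percentile of 7490 genes and dashed lines at 1.5 times. Actg1 in TGFβR-CA, at 2.98 and 2.83, lies outside both bars, and Arpc1b is split by the TGFβR-WT set it is compared with.

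Summed, the 10 genes took 4.78% of all corrected UMIs in TGFβR-KO (95% interval 4.76 to 4.79%), 4.45% in the larger set (4.43 to 4.48%), 4.25% in the smaller set (4.22 to 4.29%) and 3.37% in TGFβR-CA (3.36 to 3.39%). These intervals cover counting error only. *Tmsb4x* and *Actb* made up most of the sum, so it was low in TGFβR-CA as *Tmsb4x* was. The place of TGFβR-KO above the larger and the smaller set depended on the cluster. TGFβR-KO was above both in GC-TFH cells, at 4.22% against 4.08 and 3.83%. It was below both in TR-TFH cells (3.53% against 4.02 and 3.90%) and in Activated cells (4.65% against 4.99 and 5.02%). In Pre-tumorigenic cells it was also below, at 4.87% against 5.79 and 4.99%. The median ratio of the 10 genes to the larger and the smaller set was 1.07 and 0.930 in TGFβR-KO and 0.810 and 0.794 in TGFβR-CA. In TGFβR-CA these medians were below those of all tested genes given above, and in TGFβR-KO they were above them.

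Among the clusters of TGFβR-KO, the only condition with at least 20 cells in all 8, the sum ran from 3.53% in TR-TFH to 6.20% in Cycling cells and was 5.70% in Tumorigenic cells. The clusters were made from these cells, and the differences between them are a description. Cycling cells had the highest level of *Actb* (194), *Actg1* (1.73), *Cfl1* (23.4), *Pfn1* (41.6) and *Coro1a* (19.3) in TGFβR-KO, and in the larger set, the only other set with at least 20 of them, also of *Actb* (165), *Cfl1* (20.99), *Pfn1* (47.5) and *Coro1a* (21.9). Cycling cells numbered 77 and 41 in these sets. Tumorigenic cells, 361 in TGFβR-KO and 2 or 3 in each other set, had the highest level of *Tmsb4x* (285) and *Tmsb10* (54.9) and came next after Cycling cells for *Actb* (146), *Actg1* (1.17) and *Cfl1* (18.0). They were at 10.9 for *Lsp1*, below Migratory cells, and at 13.6 for *Coro1a*, below 5 of the other clusters.

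TR-TFH cells lay at the opposite end, with the lowest levels of *Actb* (94.1), *Actg1* (0.446), *Tmsb4x* (142), *Cfl1* (11.3) and *Pfn1* (21.5) in TGFβR-KO. Cytotoxic cells (CTL) were near the TGFβR-KO average for most members, with 130 for *Actb*, 256 for *Tmsb4x* and 10.4 for *Lsp1*. *Tmsb10* ran against *Tmsb4x* in the Activated cluster, where it was lowest in all 4 sets (31.8 in TGFβR-KO, 25.3 and 27.9 in the larger and smaller set, 23.5 in TGFβR-CA), while *Tmsb4x* was there at 247, 287, 273 and 183. *Lsp1* varied most of the 10 across clusters of TGFβR-CA, 4.61 times, and across those of the larger set, 3.91 times, and in TGFβR-KO *Actg1* varied 3.89 times and *Lsp1* 3.52 times. *Arpc2* varied least in TGFβR-KO, by 1.22 times.

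**Figure D5:**
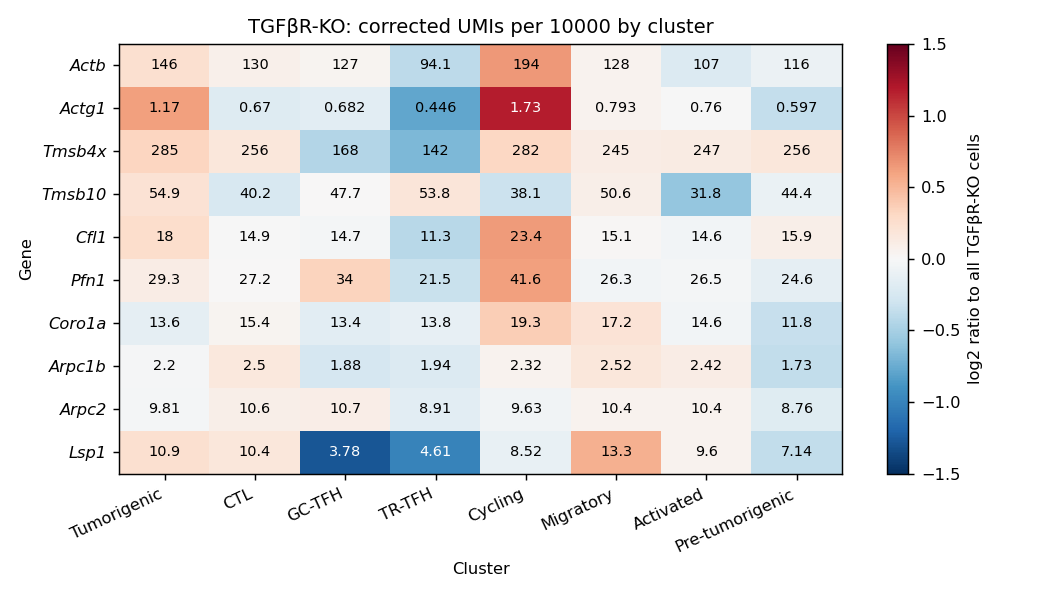
Levels of the 10 genes in the 8 clusters of TGFβR-KO, printed as corrected UMIs per 10000 and coloured by the log2 ratio to all TGFβR-KO cells. Cycling cells are the highest in 5 genes, TR-TFH cells the lowest in 5, and Lsp1 runs from 3.78 in GC-TFH to 13.3 in Migratory cells.

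The members did not move as a block. Over the 23 combinations of a cluster and a set with at least 20 cells, the Pearson correlations of log2(level + 0.1) between the 45 pairs of members ran from -0.60 to 0.76, with a median of 0.03. *Tmsb4x* went with *Lsp1* (0.76) and *Cfl1* (0.75) and against *Tmsb10* (-0.56), and *Actg1* went against *Arpc2* (-0.60). These points share libraries and cells, so the coefficients are descriptions. Among the 5 genes most like *Actb* by this measure, of 7490, were *Txn1* (0.91), a thioredoxin, *Snhg6* (0.87), *Lgals1* (0.85), a galectin, and *Prc1* (0.85), a factor of cell division. Among the 5 most like *Actg1* were *Sumo2* (0.80), *Dnajb11* (0.78), *Tsix* (0.76) and *Gm42418* (0.75). *Gm42418* and *Tsix*, the antisense partner of *Xist*, also part the libraries.

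The wider actin machinery was read from a list of 93 genes, of which 89 were in the table and 84 passed the minimum of 200 corrected UMIs. It was read over all cells of a set and not by cluster. Migratory, Tumorigenic and CTL cells numbered 831, 361 and 321 in TGFβR-KO and 73, 2 and 10 in the larger set. How far such differences in cluster makeup enter the values of these genes was not tested. In TGFβR-KO, 2 were called higher and 5 lower, beside 2.94% and 5.43% of all tested genes. In TGFβR-CA, 1 was called higher and 4 lower, beside 1.26% and 2.75%. Except for the lower calls in TGFβR-CA, the counts were near what these shares give among 84 genes. In TGFβR-CA the calls of *Tmsb4x* and *Cfl1* rested on the denominator. How far the 4 lower calls of the list rest on it was not tested. The called genes are thus described singly and not as a result about the list. The median ratio of the list to the larger and the smaller set was 0.955 and 0.916 in TGFβR-KO and 0.910 and 0.831 in TGFβR-CA. None of the other 7 Arp2/3 subunits was called in either condition, nor any of the 4 other coronins or the 3 ERM proteins, which tie actin to the membrane.

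*Tagln2*, a transgelin that binds filaments, went opposite ways in the conditions, with a level of 5.55 in TGFβR-KO, 2.66 in the larger set, 3.07 in the smaller set and 1.57 in TGFβR-CA. *Daam1*, a formin, also was called higher in TGFβR-KO (0.145) and lower in TGFβR-CA (0.0548), against 0.0838 and 0.0907 in the larger and smaller set, but these are few UMIs (223 in all). Another formin, *Diaph1*, was lower in TGFβR-CA, with 1.30 against 2.14 and 2.13. *Myo1g*, a myosin of leukocytes, was at 0.356 in TGFβR-CA against 0.559 and 0.676. *Capza1*, a subunit of capping protein, was the only listed gene called higher in TGFβR-CA, with 1.54 against 0.914 and 0.964.

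Those lower in TGFβR-KO were *Actn1*, the crosslinker α-actinin 1, at 0.225 against 0.802 and 0.767, *Ssh2*, a phosphatase that activates cofilin, at 0.767 against 1.71 and 1.54, *Cyfip1*, a WAVE complex subunit, at 0.410 against 0.874 and 1.02, *Gsn*, the filament severing protein gelsolin, at 0.0923 against 0.140 and 0.256, and *Capg*, which caps filament ends. *Capg* was at 1.22 in TGFβR-KO against 2.50 and 5.85 in the larger and smaller set, so the TGFβR-WT sets themselves differed for it. They also differed for *Gsn*, which had few UMIs (274 in all). *Srf* was at 0.357 in TGFβR-KO, 0.395 in the larger set, 0.396 in the smaller set and 0.356 in TGFβR-CA and was not called, and neither were its cofactor genes *Mkl1* and *Mkl2*.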

How the data were processed

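The cells were from 4 scRNA-seq samples of sorted intestinal T cells. According to the methods and the labels, the authors counted UMIs with Cell Ranger 3.1.0 against mm10, kept cells by their detected genes and mitochondrial share, normalized with SCTransform in Seurat, integrated and clustered them, and removed γδT and epithelial cells. Sequencing was done in 2 batches, each with TGFβR-WT cells beside 1 of the other conditions (TGFβR-KO first, then TGFβR-CA). No label ties the TGFβR-WT name suffixes to a batch, so condition and batch cannot be told apart. Of 16 barcodes found in more than 1 set, 14 were in TGFβR-KO and the larger set, and *Xist* was at 0 in both. Whether these 2 sets shared a batch was not tested. The values that the authors deposited are the natural log of 1 plus the corrected UMI number. The log was undone, which gave whole numbers within 1e-06, and levels, ratios and shares were computed in Python 3.11.15 with numpy 2.4.6, pandas 2.3.3 and scipy 1.17.1. Corrected UMIs do not suit a count model, original depth is unknown, and exact intervals (95%) cover counting error only.

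The 10 genes and the gene lists were chosen with earlier results of these data known. Named genes are the 10 members, the 5 genes most like *Actb* and *Actg1*, the listed actin genes past 1.5 times (at most 5 per direction and condition), and markers or library facts. Some genes that this rule names are not reported here. *Lars2*, *Srf*, *Mkl1*, *Mkl2* and genes overlapping members were named after their values or positions were seen. Clusters are shown in a set with at least 20 cells, and doublets were treated only by leaving out the 5% of cells with most detected genes. Coordinates and 3' ends are from GENCODE on GRCm38 (mm10), with genes matched by symbol. As a check of the code only, the rule of 1.5 times was run on simulated counts with larger changes put in. The simulated sets held no other difference between libraries, so the run does not measure how often the rule errs in these data. Alternatives changed the threshold, the denominator, the cells kept, the weights of clusters and the TGFβR-WT set.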

Additional observations from a re-analysis of the deposited data

How the results depend on the processing

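No paired analysis was possible because the mutant conditions are single samples and TGFβR-WT cells cannot be assigned to samples. The count of members called in TGFβR-CA (3) became 5 at the lower threshold tried, adding *Pfn1* and *Lsp1*, and 1, *Actg1* alone, at a threshold of 2, with ribosomal, mitochondrial and rRNA-overlapping genes out of the denominator, with *Gm42418*, *AY036118* and *Lars2* alone out of it, or with ratios divided by their median over all genes, the last 2 of these chosen after seeing the data. It was 2 with equal weight for each of 4 clusters, without *Tmsb4x*. The count in TGFβR-KO (0) became 1, *Lsp1*, at the lower threshold, with the first of these denominators or with ratios divided by their median, and 2, *Arpc1b* and *Lsp1*, without the larger TGFβR-WT set. Without the smaller set TGFβR-CA had 4, with *Arpc1b* added. The cause of these changes was not tested. The summed share of the 10 genes, in TGFβR-KO, pooled TGFβR-WT and TGFβR-CA, was 4.32, 4.56 and 3.48% with equal weights, 5.02, 4.59 and 3.49% with the members out of the denominator, 6.79, 5.90 and 4.83% with the ribosomal and other genes out, and 4.80, 4.41 and 3.58% with the 3 genes alone out. Without the 5% of cells with most detected genes it was 4.79% in TGFβR-KO and 4.42% in TGFβR-WT, and as a mean over cells 4.42% in TGFβR-WT. TGFβR-CA had the lowest share in each, whereas TGFβR-KO was below pooled TGFβR-WT with equal weights and above it in the others. *Actg1* was 0.557% of both actins in TGFβR-KO with equal weights. Of the 5 genes most like *Actb*, 3 were shared with a Spearman correlation, 0 with TGFβR-KO clusters only and 3 among genes of at least 1000 corrected UMIs. For *Actg1* these were 3, 0 and 2. Of 268 other values, 247 kept their side of the threshold, 8 passed it, 9 no longer did and 4 background shares moved. No called ratio changed direction, but 10 ratios to pooled TGFβR-WT that were not called crossed 1. In TGFβR-KO these were *Lsp1* (0.982), *Tmsb4x* (0.917), *Cfl1* (0.918) and *Coro1a* (0.955) with equal weights, *Cfl1* (0.938) and *Coro1a* (0.923) without the larger set and *Arpc1b* (1.12) without the smaller. In TGFβR-CA they were *Actb* (1.01), *Arpc1b* (0.758) and *Tmsb10* (0.953) without the larger set. Depth before correction is unknown.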
